A study of Mus musculus with 8 samples.

Results

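A set of 9 genes of fibroblast growth factor (FGF) signalling was followed through the cervical loop of the mouse incisor: the receptors *Fgfr1*, *Fgfr2* and *Fgfr3*, the feedback inhibitors *Spry1*, *Spry2*, *Spry4* and *Dusp6*, and the transcription factors *Etv4* and *Etv5*. They were chosen by name, and all 9 were found among the 23358 genes of the expression table. All 9 were also among the 14148 genes that were tested, which were those with at least 1 RPKM (the read count divided by gene length in kilobases and by the library's total) in at least 2 of the 8 libraries. FGF ligands bind receptor tyrosine kinases together with heparan sulfate, and the receptors switch on the RAS-ERK cascade. ERK activity raises transcription of *Etv4* and *Etv5*, and of Sprouty and *Dusp6*, whose proteins dampen the cascade again, so that these genes are widely read as a record of FGF activity. In the incisor, exchange of FGF signals between epithelium and mesenchyme is known to maintain the epithelial stem cells of the cervical loop.

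Total RNA was sequenced from C57BL/6 mice of 4 weeks of age, with 2 libraries in each of 4 groups. CLH is the head region of the cervical loop, where the dental epithelial stem cells lie. CLT is its tail region, where their progeny lie. In the *Med1* cKO mice both *Med1* alleles were floxed and Cre, driven by the *Krt14* promoter, deleted exons 8 to 10 in *Krt14*-expressing epithelial cells, while Cre-negative littermates were the Ctrl. Mesenchymal cells therefore carried an intact *Med1* in both genotypes. The libraries came from 2 independent litters, with tissue of several mice pooled for each group, and the p-values below measure the spread between such pools. The labels do not name the litter of a library. In bulk tissue, fewer cells of a type and less RNA per cell cannot be told apart.

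The libraries held 22330512 to 28651106 reads on genes. The gene targeted by the deletion, *Med1*, a subunit of the Mediator complex, was measured over its whole length. Ctrl CLH held 7.71 and 9.12 RPKM of it, and cKO CLH 7.10 and 7.03. In CLT, Ctrl held 4.83 and 8.71 and cKO 9.15 and 8.96, so the libraries labelled cKO CLT were not lower in *Med1*, and their genotype rests on their label alone. Deleted exons are only a part of the counted length. Where Ctrl or cKO is written below, the label is meant.

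The tissue is labelled as dental epithelial cells, but mesenchymal markers were abundant in every library, with a summed RPKM of 2031 to 3884 for 7 genes including *Col1a1* and *Vim*. The libraries labelled cKO CLT stood apart from all others in the markers of tooth cells. Their summed RPKM was 17.7 and 14.7 for 6 ameloblast genes, against 83710 and 33720 in Ctrl CLT, and 1.43 and 1.13 for 6 odontoblast and bone genes, against 1115 and 1228. Hair keratins were at 7897 and 8679. Ctrl CLT 1 was unlike Ctrl CLT 2: it held 2693 RPKM of hair keratins against 9.80, and 776.1 RPKM of 6 skeletal muscle genes against 58.0. The median gene differed by 0.40 on the log2 scale between the Ctrl CLT libraries, and by 0.092 to 0.11 within the other 3 groups.

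**Figure D1:**
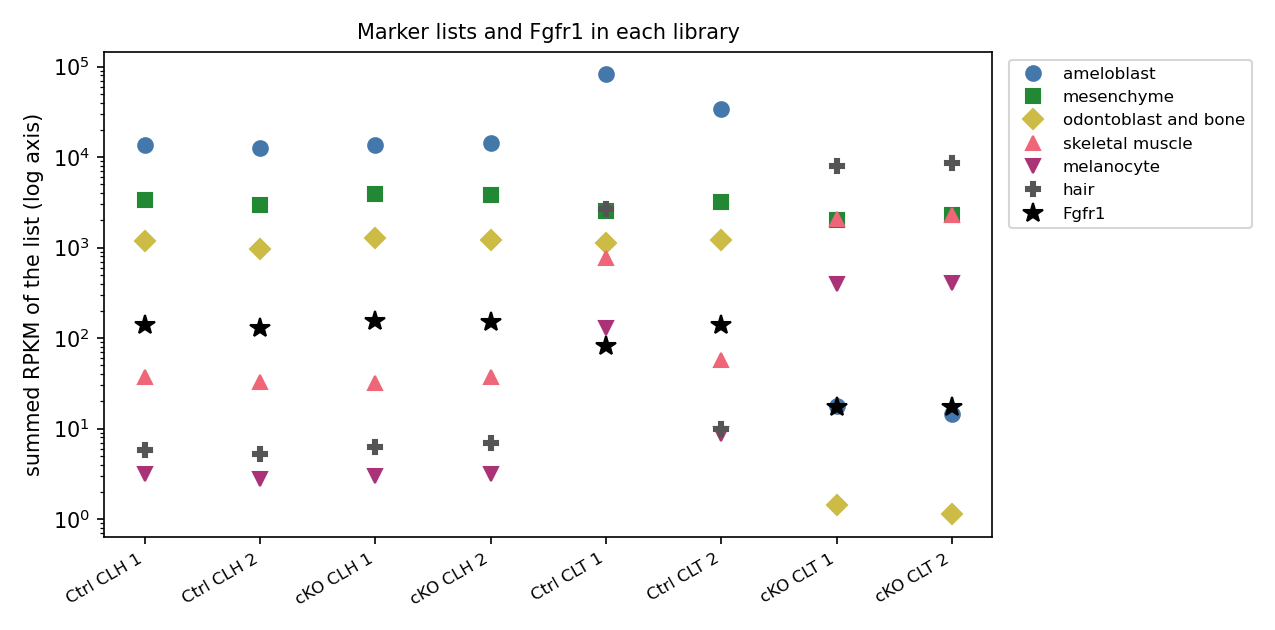
Summed RPKM of 6 marker lists and the RPKM of *Fgfr1* (stars) in each of the 8 libraries, on a log axis. Ameloblast and odontoblast lists are lowest in the cKO CLT libraries, and Ctrl CLT 1 lies between Ctrl CLT 2 and the cKO CLT libraries for hair, muscle and melanocyte genes and for *Fgfr1*.

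Promoter windows are shown for 3 of the genes that were lower in CLT than in CLH of cKO mice in the tests below. They run from 250 bases before to 50 bases after a RefSeq start site on GRCm38.p6, the assembly also called mm10. Windows of 6 of the 9 genes were searched, while *Fgfr1*, *Spry4* and *Etv4* were not searched. Because *Etv4* and *Etv5* belong to the ETS family, the windows were searched on both strands for the ETS core sequences AGGAAG and CCGGAA, and matches are in capitals. Both *Etv5* start sites are given, since only the window of the downstream site held a match.
Fgfr2 chr7:130266759-130267058 (minus strand): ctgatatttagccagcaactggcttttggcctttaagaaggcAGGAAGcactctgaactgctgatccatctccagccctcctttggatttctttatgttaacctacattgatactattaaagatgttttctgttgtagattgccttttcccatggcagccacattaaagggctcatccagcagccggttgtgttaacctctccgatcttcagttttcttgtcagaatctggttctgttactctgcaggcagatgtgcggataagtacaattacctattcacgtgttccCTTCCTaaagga
Spry2 chr14:105896770-105897069 (minus strand): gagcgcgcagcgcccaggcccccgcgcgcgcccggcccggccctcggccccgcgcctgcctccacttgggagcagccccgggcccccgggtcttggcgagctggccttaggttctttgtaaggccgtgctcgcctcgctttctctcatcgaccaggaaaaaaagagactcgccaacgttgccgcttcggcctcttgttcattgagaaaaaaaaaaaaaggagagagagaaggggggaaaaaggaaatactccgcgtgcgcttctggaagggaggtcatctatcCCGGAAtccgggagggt
Etv5 chr16:22439521-22439820 (minus strand): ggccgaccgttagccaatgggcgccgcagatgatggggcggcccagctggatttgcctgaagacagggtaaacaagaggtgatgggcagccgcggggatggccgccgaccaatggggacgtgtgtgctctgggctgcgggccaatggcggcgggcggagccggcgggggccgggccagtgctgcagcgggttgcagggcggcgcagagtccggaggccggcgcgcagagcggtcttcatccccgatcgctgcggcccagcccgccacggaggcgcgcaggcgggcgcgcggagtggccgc
Etv5 chr16:22438319-22438618 (minus strand): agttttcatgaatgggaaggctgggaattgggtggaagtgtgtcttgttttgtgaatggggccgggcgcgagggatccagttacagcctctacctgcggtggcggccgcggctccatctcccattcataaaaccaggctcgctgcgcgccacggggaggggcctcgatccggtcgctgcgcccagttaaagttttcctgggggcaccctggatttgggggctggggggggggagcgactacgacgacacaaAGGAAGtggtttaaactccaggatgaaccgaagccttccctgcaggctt
The *Fgfr2* window held 2 matches of AGGAAG, starting at positions -208 and 38 from the start site, and the downstream *Etv5* window held 1, at position 1. The *Spry2* window held 1 match of CCGGAA, at position 33. The *Dusp6* window, which is not printed, held 1 match of AGGAAG at position -210. The windows of *Spry1* and *Fgfr3* held neither sequence. Among all 32851 windows of the same length, 45.2% held at least 1 of the sequences, so such matches are common, and none of them is shown to be a binding site.

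*Fgfr1*, the receptor whose IIIc form is typical of mesenchyme, was the most abundant of the 3 receptors outside cKO CLT (gene on chromosome 8, 25518772 to 25575714, mm10). Ctrl CLH held 139 and 130 RPKM and cKO CLH 153 and 151. Ctrl CLT held 81.5 and 140, and both cKO CLT libraries held 17.2. The cKO CLT libraries were far below every other library, and they were counted from 2348 and 2413 reads. The group order was cKO CLH, Ctrl CLH, Ctrl CLT and cKO CLT, with overlap only between Ctrl CLH and Ctrl CLT.

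*Fgfr2*, whose IIIb form is typical of epithelium, was higher in CLH than in CLT in both genotypes (chromosome 7, 130162451 to 130266808). The Ctrl CLH libraries were at 38.2 and 41.9 RPKM and the cKO CLH libraries at 36.2 and 36.5. Ctrl CLT was at 22.1 and 28.7, and cKO CLT at 25.5 and 24.6. Every CLH library was above every CLT library, while the Ctrl and cKO CLT groups overlapped and Ctrl CLH lay above cKO CLH.

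*Fgfr3*, a receptor best known for restraining bone growth, varied least among the receptors between group means (chromosome 5, 33721724 to 33737068). Ctrl CLH held 41.8 and 40.3 RPKM and cKO CLH 49.4 and 44.2. Ctrl CLT held 32.2 and 50.4 and cKO CLT 51.3 and 55.6. The cKO CLT libraries were highest, but Ctrl CLT spanned the range of the CLH libraries.

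As a share of the summed RPKM of the 3 receptors, *Fgfr1* made up 60.0% to 65.1% in the 6 other libraries and 18.3% and 17.6% in cKO CLT. *Fgfr3* made up 54.6% and 57.1% there, and *Fgfr2* 27.1% and 25.2%. The ratio of *Fgfr1* to *Fgfr3*, which does not depend on how a library is scaled, was 2.53 to 3.40 in the 6 other libraries and 0.335 and 0.309 in cKO CLT. *Fgfr1* was thus the leading receptor transcript in all groups but one, and *Fgfr3* led in that group. In Ctrl CLT 1, which held hair and muscle transcripts too, the *Fgfr1* share was 60.0%.

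**Figure D2:**
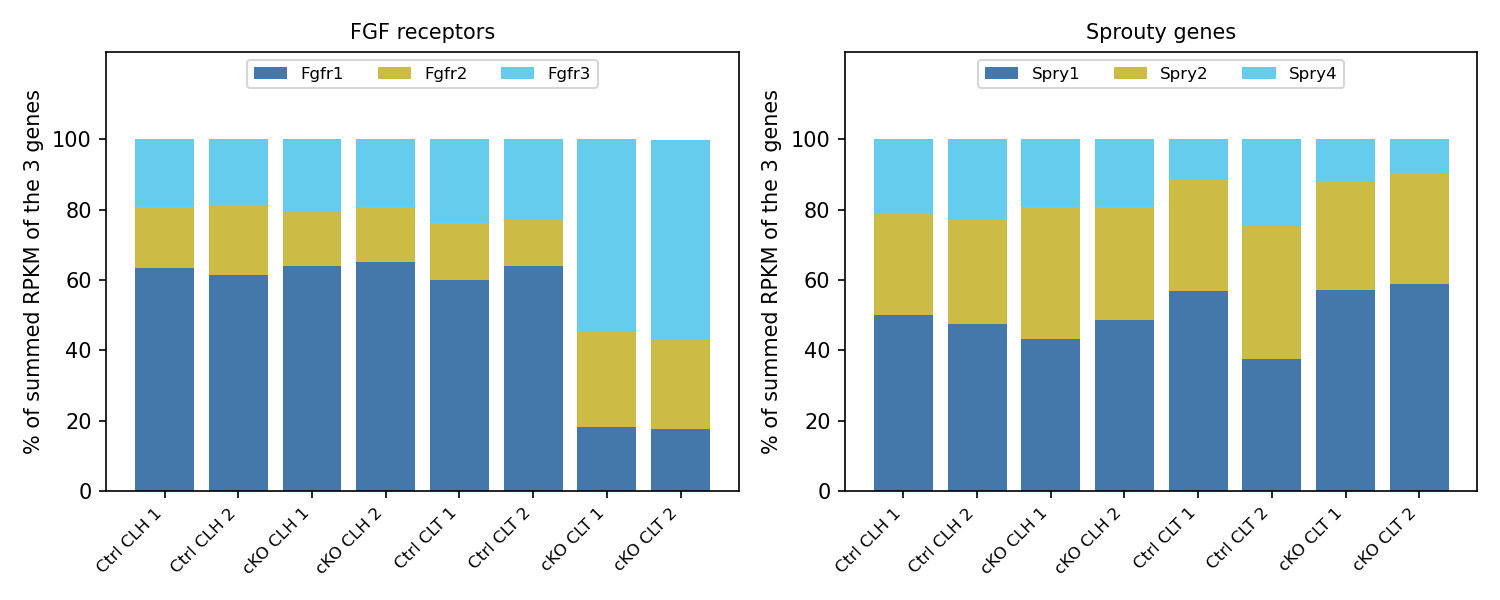
Stacked bars of each receptor (left) and each Sprouty gene (right) as a percentage of the summed RPKM of the 3 genes, in each of the 8 libraries. *Fgfr1* is at 60.0% or more in 6 libraries and at 18.3% and 17.6% in the cKO CLT libraries, while *Spry1* is the largest Sprouty share in all libraries but Ctrl CLT 2.

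*Spry1*, an inhibitor of receptor tyrosine kinase signalling, was the one feedback gene that was lowest in Ctrl CLT and highest in cKO CLT (chromosome 3, 37639950 to 37644599). The Ctrl libraries held 13.1 and 13.4 RPKM in CLH but 8.91 and 6.87 in CLT. The cKO libraries held 10.4 and 13.1 in CLH and 12.5 and 14.4 in CLT. The Ctrl CLT libraries lay below all 6 others, which overlapped one another. It was also the only one of the 9 genes that was higher in Ctrl CLT 1 than in Ctrl CLT 2, by 1.30-fold. Among all genes tested, 56.9% were lower in Ctrl CLT 1.

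*Spry2*, a second Sprouty inhibitor, stayed within a narrow range (chromosome 14, 105891947 to 105896819). CLH held 7.55 and 8.41 RPKM in the Ctrl libraries and 8.97 and 8.67 in the cKO libraries. CLT held 4.96 and 6.97 in the Ctrl libraries and 6.79 and 7.68 in the cKO libraries. The CLH libraries of each genotype were above its CLT libraries, and the ranges of Ctrl CLH and cKO CLT overlapped.

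*Spry4*, the Sprouty gene with the lowest RPKM, had 235 to 873 reads per library, including the smallest single count of the 9 genes (chromosome 18, 38586265 to 38601268). Ctrl mice had 5.53 and 6.40 RPKM in CLH and 1.75 and 4.51 in CLT, and cKO mice had 4.62 and 5.15 in CLH and 2.603 and 2.396 in CLT. All CLH libraries were above all CLT libraries. The Ctrl CLT libraries differed 2.58-fold, the widest gap of the 9 genes within a group, and enclosed both cKO CLT values.

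*Dusp6*, the phosphatase that inactivates ERK in the cytoplasm, was at nearly one level in 3 of the 4 groups (chromosome 10, 99263231 to 99267489). Ctrl CLH held 19.8 and 21.98 RPKM, cKO CLH 19.6 and 19.7, and cKO CLT 19.7 and 20.1. Ctrl CLT was lower, at 12.4 and 17.1, and did not overlap the other groups.

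*Etv4*, an ETS factor of the PEA3 group, showed the plainest contrast of regions (chromosome 11, 101769742 to 101785310). In CLH, the Ctrl libraries held 22.1 and 22.2 RPKM and the cKO libraries 20.2 and 22.8. In CLT, the Ctrl libraries held 7.05 and 8.93 and the cKO libraries 9.01 and 9.86. All CLH libraries were more than 2-fold above all CLT libraries, and the Ctrl CLT and cKO CLT values lay next to each other without overlap.

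*Etv5*, its close relative, followed the same regional order (chromosome 16, 22381313 to 22439570). Ctrl CLH held 19.0 and 19.6 RPKM and cKO CLH 17.9 and 17.7. Ctrl CLT held 6.12 and 10.8, and cKO CLT 6.02 and 6.04. The lower Ctrl CLT library, Ctrl CLT 1, was close to the cKO CLT pair, although the groups did not overlap.

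**Figure D3:**
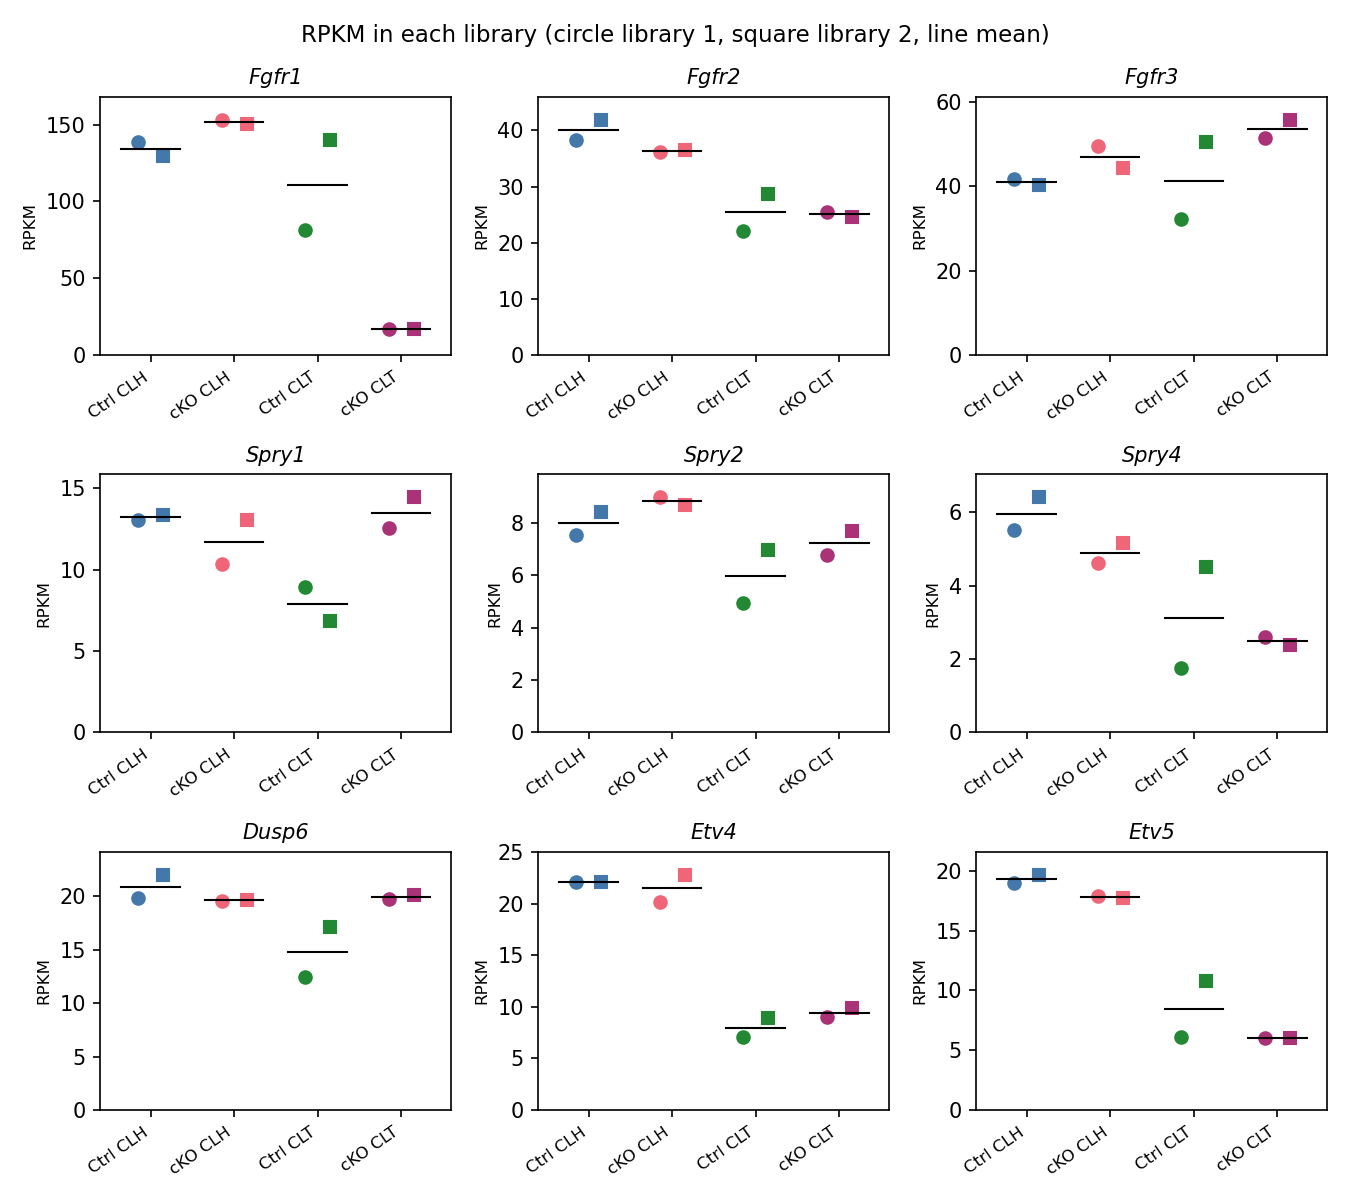
RPKM of the 9 genes in each library, on linear axes from 0, with circles for library 1, squares for library 2 and a line at the mean of each group of 2. *Fgfr1* is low only in cKO CLT (17.2 in both libraries), *Etv4*, *Etv5*, *Fgfr2* and *Spry4* are lower in all CLT than in all CLH libraries, and the squares and circles of Ctrl CLT lie far apart.

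The first question was whether loss of *Med1* changed these genes among the stem cell progeny. In CLT, no member of the set reached an adjusted p under 0.05 (limma, Benjamini-Hochberg over all 14148 genes, 4 libraries), and 1.75% of all genes did in either direction. At an unadjusted p under 0.05 there were 2 of the 9, *Fgfr1* and *Spry1*, beside 36.2% of all genes. A voom fit on reads recovered from the RPKM values called 0. *Fgfr1* came closest: its log2 fold change in cKO was -2.57 (SE 0.30, adjusted p = 0.052, limma), a 6.44-fold lower mean RPKM, and it was lower in both cKO libraries than in either Ctrl library. *Spry1* followed at 0.71 (SE 0.20, adjusted p = 0.099), a 1.71-fold higher mean with no overlap. *Dusp6* was at 0.42 (SE 0.20) and *Fgfr3* at 0.40 (SE 0.26), and the other 5 genes lay between -0.38 for *Etv5* and 0.25 for *Spry2*. The median of the 9 genes was 0.22, beside -0.0086 over all genes. Groups did not overlap for 6 of the 9 genes, 4 higher and 2 lower in cKO, but 72.2% of all genes did not overlap either.

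The number called among the 9 changed with the fit. With all 8 libraries in 1 fit, in which all groups share an estimate of the spread, *Fgfr1* (adjusted p = 0.0013) and *Spry1* (adjusted p = 0.018) passed, and 43.7% of all genes did. Without Ctrl CLT 1 the *Fgfr1* value was -2.95, and without Ctrl CLT 2 it was -2.18. Each of these fits rested on a single Ctrl library assumed to vary like the cKO pair. Leaving out cKO CLT 1 or 2 gave 0 calls, and with the replicate number as a block *Fgfr1* alone passed (adjusted p = 0.011). Over 16 alternatives, the *Fgfr1* value stayed between -2.95 and -2.18, with adjusted p from 1.53e-05 to 0.32 and under 0.05 in 5 of them.

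In CLH, where the stem cells reside, the genotypes were close to each other. None of the 9 genes passed (limma, 4 libraries), as none of all genes did (0%), and 1027 of 14148 genes had an unadjusted p under 0.05. The log2 fold changes ran from -0.24 (SE 0.11) for *Spry4* to 0.18 (SE 0.074) for *Fgfr3*, and *Fgfr1* was at 0.18 (SE 0.062, adjusted p = 0.69), the 1 gene of the 9 with an unadjusted p under 0.05 (0.040). The groups did not overlap for 7 of the 9, with *Fgfr1*, *Fgfr3* and *Spry2* higher and *Fgfr2*, *Spry4*, *Dusp6* and *Etv5* lower in cKO, against 38.7% of all genes. These gaps were small: the largest ratio of mean RPKM among the 7 was 1.22, for *Spry4*. In the voom fit on recovered reads, none of the 9 passed either.

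An interaction term, fitted to the 8 libraries together, tested whether the genotype difference itself varied between the regions. *Fgfr1* passed, with a cKO effect that was lower in CLT than in CLH by 2.74 on the log2 scale (interaction -2.74, SE 0.33, adjusted p = 0.0072, limma). It was 1 of the 9 genes, or about the same share as the 17.6% of all genes that passed in either direction. *Spry1* was next at 0.88 (SE 0.23, adjusted p = 0.051), followed by *Dusp6* at 0.51 (SE 0.22, adjusted p = 0.14). The remaining 6 were within -0.27 and 0.26, with SE of 0.19 to 0.44. The *Fgfr1* call held in 14 of 18 alternatives. Its adjusted p rose to 0.057 without Ctrl CLH 2, to 0.051 without cKO CLH 1 or cKO CLH 2, and to 0.0545 without cKO CLT 1, with the value between -2.76 and -2.70 in these.

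Other transcripts also differed between cKO CLT and Ctrl CLT. The summed RPKM of skeletal muscle genes was 2062 and 2264 in cKO CLT against 776.1 and 58.0 in Ctrl CLT. That of melanocyte genes was 400.8 and 402.2 against 130.4 and 8.6, and 0 genes of these lists passed. Odontoblast and bone markers were lower in cKO CLT without overlap for all 6 listed genes, 5 of which passed. *Ibsp* was at 0 in both cKO CLT libraries. Of all genes, 35.1% were lower and 37.2% higher in cKO CLT without overlap, and 1.75% passed in either direction. Ameloblast markers passed as lower for all 6, none of them at 0. Of the 7 mesenchymal markers, 6 had a value below 0 and none passed, and their summed RPKM was 2556 and 3193 in Ctrl CLT against 2031 and 2295 in cKO CLT. *Pdgfra* was at 13.5 and 38.5 RPKM in the Ctrl and at 6.03 and 5.76 in the cKO libraries (adjusted p = 0.11), while the log2 fold change was -0.16 for *Col1a2* and 0.91 for *Col3a1* (adjusted p = 0.075). Among the epithelial markers, 5 were higher in cKO CLT with no overlap and without passing, among them *Krt5* at 0.93 (adjusted p = 0.099). The part that such shifts in tissue play in the *Fgfr1* value was not tested.

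The regions were compared within each genotype, which reuses the same libraries as the comparisons above. In Ctrl mice, all 9 genes had a log2 fold change below 0 in CLT against CLH, except that *Fgfr3*, at -0.024, turned to 0.15 with median-of-ratios scaling and to 0.0055 with quantile normalization. The median of the 9 genes was -0.65 and that of all genes -0.13, which became 0.012 with median-of-ratios scaling. None of the 9 passed with the 4 libraries of this genotype, and 0.00707% of all genes, or 1 gene, did. At an unadjusted p under 0.05 there were 4 (*Etv4*, *Etv5*, *Fgfr2* and *Spry1*), beside 13.1% of all genes, and voom called 0. *Etv4* was lowest at -1.37 (SE 0.17, adjusted p = 0.28, limma), a 2.77-fold lower mean RPKM, then *Etv5* at -1.15 (SE 0.29) and *Spry4* at -0.84 (SE 0.39). Of the 9 genes, 7 were lower in both CLT libraries than in either CLH library, beside 36.8% of all genes, the exceptions being *Fgfr1* and *Fgfr3*. With all 8 libraries in 1 fit, 3 passed as lower, *Etv4* (adjusted p = 0.0095), *Etv5* (0.043) and *Fgfr2* (0.049), beside 3.47% of all genes. Without Ctrl CLT 1 the log2 fold change of *Fgfr1* was 0.060 and the median of all genes -0.073. Without Ctrl CLT 2 *Fgfr1* was at -0.711 and the median of all genes at -0.199. Each of these fits rested on a single Ctrl CLT library.

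In cKO mice, 6 of the 9 genes fell from CLH to CLT and none rose (limma, 4 libraries), beside 45.1% of all genes lower and 28.9% higher. *Fgfr1* fell most, by 3.07 on the log2 scale (SE 0.080, adjusted p = 8.53e-09), an 8.83-fold lower mean RPKM. The ETS factors fell with it, *Etv5* to a value of -1.42 (SE 0.088, adjusted p = 1.52e-06) and *Etv4* to -1.11 (SE 0.099, adjusted p = 1.52e-05). *Spry4* was at -0.75 (SE 0.10, adjusted p = 0.00025), *Fgfr2* at -0.52 (SE 0.082, adjusted p = 0.00049) and *Spry2* at -0.26 (SE 0.10, adjusted p = 0.045). *Fgfr3* (0.19), *Spry1* (0.19) and *Dusp6* (0.021) did not pass, although *Fgfr3* (adjusted p = 0.034) and *Spry1* (adjusted p = 0.030) did with the replicate number as a block. The median of the 9 genes was -0.52 and that of all genes -0.18. Groups did not overlap for 8 of the 9 genes, beside 86.7% of all genes.

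The call of *Spry2* was lost under 10 of its 15 alternatives, among them each of the 4 fits without a library, with adjusted p of 0.070 to 0.24. Median-of-ratios scaling moved the median gene of this comparison from -0.18 to 0.020 and *Spry2* to -0.058, and under it *Fgfr3* (0.41), *Spry1* (0.40) and *Dusp6* (0.235) passed as higher. Under that scaling *Spry2* did not pass (adjusted p = 0.62), while *Fgfr1*, *Etv5*, *Etv4*, *Spry4* and *Fgfr2* still passed as lower. With all 8 libraries in 1 fit 4 genes passed as lower, beside 31.4% of all genes, and *Spry4* did not (adjusted p = 0.086).

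*Fgfr2*, *Spry2*, *Spry4*, *Etv4* and *Etv5* were lower in CLT than in CLH without overlap in both genotypes, 5 of the 9 genes beside 25.9% of all genes. The regional values of *Etv4* were -1.37 in Ctrl and -1.11 in cKO, those of *Etv5* -1.15 and -1.42, and those of *Fgfr2* -0.65 and -0.52. The difference between genotypes, which is the interaction, did not pass for any of these 5 genes (adjusted p from 0.35 to 0.90, limma). *Fgfr1*, whose interaction passed, was at -0.33 (SE 0.30) in Ctrl and -3.07 in cKO. *Spry1* (-0.69 in Ctrl), *Dusp6* (-0.49) and *Fgfr3* (-0.024) had values of the opposite sign in cKO, and their interactions did not pass.

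**Figure D4:**
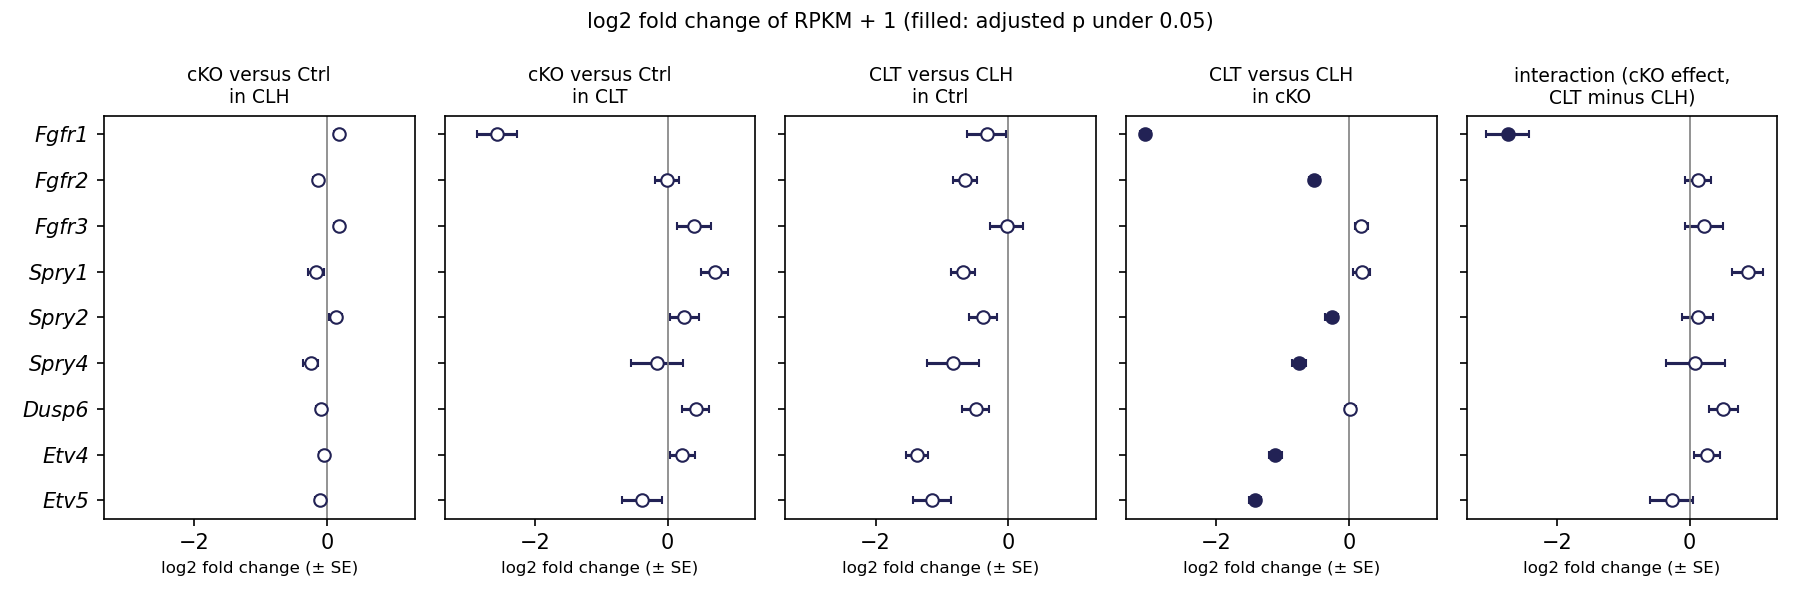
log2 fold change of RPKM + 1 with its SE (bars) for the 9 genes in the 4 comparisons and the interaction, each on the same axis, with filled points where the adjusted p was under 0.05. Only *Fgfr1* passes in the interaction (-2.74), and 6 points pass in the comparison of regions in cKO mice.

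The wider pathway was described by 6 lists of genes. On the receptor side (*Fgfr4*, *Fgfrl1*, the Klotho co-receptors, the Frs adaptors and the Flrt proteins), 7 of 9 genes were tested and none was called in CLT between genotypes. Their values ran from -1.08 (SE 0.17, adjusted p = 0.062) for *Fgfrl1*, a receptor without a kinase domain, to 1.17 (SE 0.24, adjusted p = 0.076) for *Flrt3*, a membrane protein that binds FGF receptors. In the interaction 2 of the 7 passed, beside 8.05% of all genes higher and 9.58% lower, *Fgfrl1* at -1.20 (adjusted p = 0.015) and *Flrt3* at 1.07 (adjusted p = 0.0497). From CLH to CLT in cKO mice, 2 rose (*Flrt3* at 0.94 and *Flrt1* at 0.68) and 2 fell (*Fgfrl1* at -1.35 and *Frs3* at -1.14), beside 28.9% of all genes that rose and 45.1% that fell. *Flrt1* reached 1 RPKM only in the cKO CLT libraries, so it passed the filter only through the group where it was high. In CLT, *Fgfrl1* was at 9.41 and 10.6 RPKM in the Ctrl and at 4.07 and 4.33 in the cKO libraries.

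Of 17 FGF ligands, 7 were tested, and none was called in CLT between genotypes. *Fgf5*, which is known to end hair growth, was highest at 2.85 (SE 0.83), with 4.24 and 0.045 RPKM in the Ctrl libraries against 15.9 and 15.8 in the cKO libraries, and *Fgf1* was lowest at -1.21 (SE 0.16, adjusted p = 0.060) and passed in the interaction at -1.26 (adjusted p = 0.0082). In cKO mice, 4 ligands fell from CLH to CLT, beside 45.1% of all genes. The 2 that rose, *Fgf5* and *Fgf22*, reached 1 RPKM only in Ctrl CLT 1 and the cKO CLT libraries. They passed the filter through these alone and could only rise, so they are not set against all genes. *Fgf22* was listed at 0 in both CLH libraries and at 16.6 and 20.6 RPKM in CLT, and *Fgf5* at 0.012 and 0.027 in CLH. The ligands that fell were led by *Fgf3* at -2.33 and *Fgf9* at -1.25, both tooth ligands.

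Other feedback inhibitors of ERK signalling went both ways. Of 11 tested genes (Spred, further Dusp genes, *Il17rd*, *Lrig1* and *Errfi1*), none was called in CLT between genotypes, with values from -0.63 for *Dusp9* to 2.58 for *Lrig1* and a median of 0.28. In the interaction 3 were higher and none lower, beside 8.05% of all genes higher and 9.58% lower: *Dusp4* at 1.70 (adjusted p = 0.024), *Dusp7* at 1.06 (adjusted p = 0.032) and *Spred2* at 0.91 (adjusted p = 0.034), all inhibitors of ERK signalling. From CLH to CLT in cKO mice, 7 of the 11 rose and 3 fell, beside 28.9% of all genes that rose and 45.1% that fell. The largest were *Lrig1* at 2.92, *Dusp5* at 1.85 and *Dusp4* at 1.82, and on the lower side *Il17rd*, an inhibitor of FGF signalling also called Sef, at -1.40.

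Genes that respond to ERK more generally were also described. None of 12 tested was called in CLT, where *Egr1*, an immediate-early factor, was highest at 1.86 (SE 0.43, adjusted p = 0.082) and *Elk3*, an ETS factor, lowest at -1.23 (adjusted p = 0.097). The interaction called 3 higher, *Egr1* at 2.10 (adjusted p = 0.038), *Phlda1* at 0.87 (adjusted p = 0.034) and *Ets2* at 0.74 (adjusted p = 0.019), and none lower, beside 8.05% of all genes higher and 9.58% lower. In cKO mice, 5 of the 12 rose and 5 fell from CLH to CLT, beside 28.9% of all genes that rose and 45.1% that fell. *Egr1* rose to 2.07, while *Elk3* at -1.67, *Ccnd1* at -1.04 and *Etv1*, the third PEA3 factor, at -1.02 fell.

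Of the RAS-ERK cascade, 24 genes were tested, with none called in CLT and a median of 0.023. Values there ran from -1.05 (SE 0.43) for *Gab2*, an adaptor, to 0.97 (SE 0.15, adjusted p = 0.063) for *Nras*, a RAS GTPase. The interaction called 2 higher, *Nras* at 1.17 (adjusted p = 0.010) and *Ptpn11*, the phosphatase SHP2, at 0.69 (adjusted p = 0.027), beside 8.05% of all genes higher and 9.58% lower. In cKO mice 9 rose and 8 fell from CLH to CLT, or 17 of 24 genes, beside 28.9% of all genes that rose and 45.1% that fell. The largest values were *Gab2* at -1.33, *Nf1*, a RAS inhibitor, at -1.23, *Nras* at 1.04 and *Rps6ka2* at -1.02.

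Heparan sulfate genes, which make the co-receptors of FGF signalling, held the lowest values of the 6 lists in CLT. Of 18 genes, 1 was called in CLT between genotypes: *Sulf1*, an enzyme that trims heparan sulfate, at -3.58 (SE 0.32, adjusted p = 0.040, limma), with 36.0 and 64.8 RPKM in the Ctrl libraries against 3.05 and 3.18 in the cKO libraries. The median of the list was -0.76, beside -0.0086 over all genes, and 13 of 18 were below 0. The interaction called 7 lower and 1 higher, beside 8.05% of all genes higher and 9.58% lower. They were led by *Sulf1* at -3.60 (adjusted p = 0.0044), the syndecan genes *Sdc3* at -3.38 and *Sdc2* at -1.95, and the glypican gene *Gpc3* at -1.72. From CLH to CLT in cKO mice, 12 fell and 3 rose, beside 28.9% of all genes that rose and 45.1% that fell. The largest values were *Sdc3* at -3.85, *Sulf1* at -3.44, *Gpc6* at -2.73 and *Gpc3* at -2.57.

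**Figure D5:**
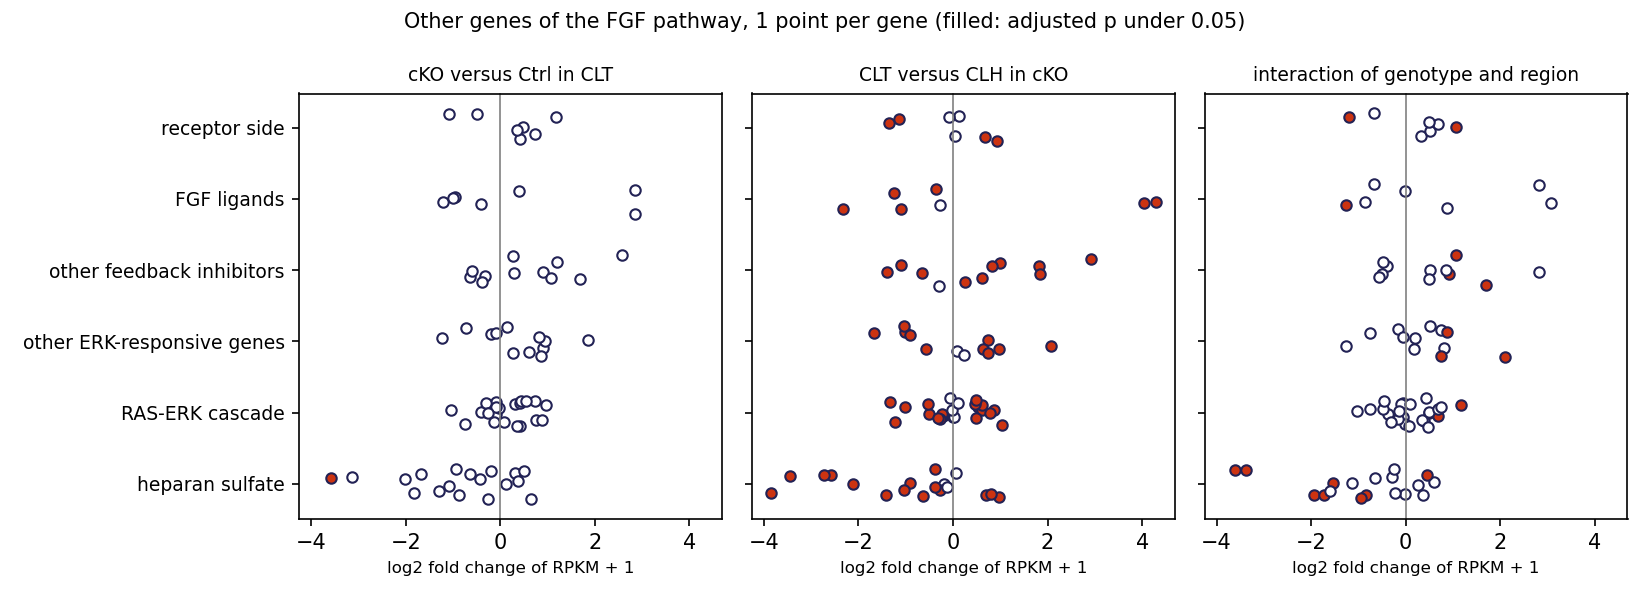
log2 fold change of RPKM + 1 for each tested gene of 6 FGF pathway lists, in cKO against Ctrl CLT, in CLT against CLH of cKO mice and in the interaction, with filled points where the adjusted p was under 0.05 and vertical scatter only for display. Only *Sulf1* (-3.58) is filled in the first panel, and heparan sulfate genes reach the lowest values in all 3.

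In CLH between genotypes and between regions in Ctrl mice, no gene of the 6 lists was called. The CLH values lay between -0.48 for *Fgf7* and 0.27 for *Map2k2*. The Ctrl values lay between -1.47 for *Fgf3* and 1.34 for *Gpc1*, and in this comparison the lowest of the other feedback inhibitors was *Il17rd* at -0.92 and the lowest of the ERK-responsive genes *Ccnd1* at -1.23.

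The genes whose log2(RPKM + 1) followed each of the 9 most closely were found among 14129 tested genes over the 8 libraries, which fall into 4 groups of 2. For *Fgfr1* they were *Sdc3* (Pearson r = 0.9994), *Lama1* (0.9993) and *Mrc2* (0.9990). *Sdc3* was at 60.0 to 79.2 RPKM in CLH, while the CLT libraries held 33.6 and 65.3 (Ctrl) and 4.28 and 4.68 (cKO). For *Fgfr2* they were *Cdo1* (0.997), *Pdzrn4* and *Pold3*, for *Fgfr3* *Pdzrn3* (0.980), *Zfp661* and *Usp13*, for *Spry1* *Kcnk5* (0.986), *Eef1g* and *Qtrt1*, for *Spry2* *G3bp1* (0.972), *Nob1* and *Fignl1*, and for *Spry4* *Gabpb1* (0.997), *Qtrtd1* and *Fam98a*. For *Dusp6* they were *Irak1* (0.991), *Top2a* and *Rad54l*, for *Etv4* they included *Tmem201* (0.996) and *Yeats2*, and for *Etv5* they were *S1pr2* (0.997), *Zfp862* and *A2m*.

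Among the 9 genes themselves, the same measure was highest for *Fgfr2* with *Etv5* (0.973), *Spry4* (0.960) and *Etv4* (0.956), and for *Etv4* with *Etv5* (0.932). It was lowest for *Fgfr1* with *Fgfr3* (-0.44) and for *Fgfr1* with *Spry1* (-0.37). Some reads cannot be assigned with certainty: on mm10, *Fgfr1*, *Fgfr3* and *Spry1* share 164, 437 and 710 exonic bases with annotated transcripts of the opposite strand, *Fgfr2* shares 314 with annotated transcripts of *Ctbp2* on its own strand, and the strand setting of the counting is not given in the sources used here.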

How the data were processed

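RNA-seq libraries of CLH and CLT tissue from Ctrl and *Med1* cKO mice were analysed, 2 per group, with groups taken from the sample labels. Per the submitters' notes, reads were checked with FastQC 0.72, trimmed with Trim Galore 0.4.3.1, aligned to mm10 with STAR 2.6.0b-1 and counted with featureCounts 1.6.3. DESeq2 2.11.40.2 is listed among the tools. The authors deposited RPKM values with gene lengths. The annotation, the strand setting and the total behind the RPKM are not given in the sources used here. Multiplied by length, 100% of values checked were multiples of the value of 1 read (tolerance 0.1), which gave library totals of 26591613 to 34420180 reads, 82.2% to 85.6% of them on genes. Names shared by several rows (26) were left out of the gene lists and the correlations, but such rows stayed in the fits over all genes where they met the filter.

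log2(RPKM + 1) was tested with limma 3.58.1 (lmFit, eBayes with trend) in R 4.3.3, and p-values were adjusted over all genes by Benjamini-Hochberg (threshold 0.05). Fold changes are on the log2(RPKM + 1) scale, which understates changes of low genes. Each comparison used its own 4 libraries, and the interaction all 8. An exact permutation test of 2 against 2 libraries was not used, since it cannot pass the threshold. The scripts were tested on simulated data.

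The 9 genes and the lists were chosen with earlier results of these data known. Named in each list were genes past the threshold (the 4 largest where more passed), or the highest and lowest where none did, and the 3 genes most correlated with each of the 9. Alternatives were other pseudocounts, scalings and filters, all 8 libraries in 1 fit, a replicate block, other eBayes settings, voom on recovered reads and each library left out. Promoter windows came from RefSeq and overlaps from GENCODE M21. Results of a few genes of the lists and of the most correlated genes are not reported here.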

Additional observations from a re-analysis of the deposited data

Results flagged for a closer look

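The genotype difference of *Fgfr1* varied between regions by the test of that difference itself: the interaction was -2.74 on the log2 scale (SE 0.33, adjusted p = 0.0072, limma). The value was -2.57 in CLT and 0.177 in CLH, with both cKO libraries below both Ctrl libraries in CLT and above them in CLH.

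*Dusp6* was higher in both cKO libraries than in both Ctrl libraries in CLT (0.424) and lower in both in CLH (-0.0844). Between regions, it was higher in CLT than in CLH without overlap in cKO mice (0.0214) and lower without overlap in Ctrl mice (-0.487). Its interaction, 0.51 (SE 0.22), did not pass (adjusted p = 0.14, limma). The *Dusp6* changes in CLH and between the cKO regions are within their standard errors or close to them (SE 0.074 and 0.083).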

How the results depend on the processing

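Most results kept their direction and side of the threshold: 168 of the results without 1 library and 470 under other settings did, 13 and 4 changed sign, and the rest crossed the threshold in either direction. For cKO against Ctrl in CLT, the number of the 9 genes called was 0 and became 1 with median-of-ratios scaling, 2 with all 8 libraries in 1 fit, 1 with the replicate block, and 0 to 6 with 1 library left out. Over all genes the count was 248 and became 3 without the filter, 6183 with all 8 libraries, 1744 with the block, 0 with voom, and 11 to 9838 with 1 library left out. For CLT against CLH in Ctrl, the 9 genes gave 0 calls and 3 with all 8 libraries (837 genes in all, against 1). The interaction gave 1 call and 2 with voom (2494 genes in all, 1448 with the block). In both, the calls also changed with 1 library left out.

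*Fgfr2* in CLT, at -0.0085, became 0.0442 with median-of-ratios scaling and 0.0431 with voom, and ranged from -0.191 to 0.174 with 1 library left out. *Fgfr3* between the Ctrl regions became 0.145 with median-of-ratios scaling and 0.0055 with quantile normalization, and ranged from -0.34 to 0.291. Further sign changes arose with 1 library left out, where *Spry4* in CLT ranged from -0.657 to 0.347, *Etv4* in CLH from -0.126 to 0.0412 and *Fgfr1* between the Ctrl regions from -0.711 to 0.0598. In the interaction, ranges were -0.0558 to 0.309 for *Fgfr2*, -0.102 to 0.529 for *Fgfr3*, -0.0872 to 0.332 for *Spry2*, -0.415 to 0.588 for *Spry4* and -0.636 to 0.0928 for *Etv5*. The cause was not tested.

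The labels do not say whether a replicate number stands for a litter, and the numbers were not taken to pair the libraries: deviations of same-numbered libraries correlated at -0.19 to 0.31 over all pairs of groups, with 0.195 between the regions of Ctrl mice, 0.307 between those of cKO mice, 0.0656 between genotypes in CLH and -0.192 in CLT. With the number as a block, 3 of 45 calls changed: *Fgfr1* in CLT, and *Fgfr3* and *Spry1* between the cKO regions. A crossed replicate block in CLT, chosen after seeing the data because of the negative correlation there, gave 0 of the 9 genes and 9 genes in all. The 9 genes had at least 235 reads in each library, and each group was 2 pools. A fit without 1 library rests on a lone library assumed to vary like the others.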
